A study of Homo sapiens with 6 samples.

Results

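The human keratin genes encode the filament proteins of epithelial cells, and 55 protein-coding members were found among the 67140 gene identifiers of the count table. A member was any protein-coding gene whose symbol is KRT followed by digits and at most 1 letter A, B or C, so pseudogenes and the keratin-associated proteins of hair were left out. Of these 55 genes, 29 are type I and 26 are type II. By the tissue in which they are best known, 5 were grouped as keratins of simple epithelium, 21 as keratins of stratified epithelium and 26 as keratins of the hair shaft or root sheath, and 3 were in none of these classes.

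Keratins work in pairs: an acidic type I chain and a basic type II chain join as a heterodimer, and these dimers build the intermediate filaments that carry mechanical load from desmosome to desmosome. KRT8 and KRT18 are the founding pair of simple epithelia, KRT5 and KRT14 mark the dividing basal layer of squamous epithelia, KRT6A with KRT16 or KRT17 appears in activated or wounded epithelium, and KRT4 with KRT13 marks the layers above the basal layer in the esophagus. Type II genes and KRT18 lie in a cluster on chromosome 12, and the other type I genes in a cluster on chromosome 17.

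The study asked which genes differ when the long noncoding RNA AC007128.1 is targeted in esophageal squamous cell carcinoma. Both groups are KYSE150 cells, an established line of this cancer grown in RPMI medium with fetal bovine serum. In 1 group the cells carried a control short hairpin (shCtrl, 3 samples) and in the other a hairpin against AC007128.1 (shAC007128.1, 3 samples). The study's methods describe stable lines selected with puromycin after lentiviral infection, and 1 control hairpin is compared with 1 targeting hairpin, so an effect of the hairpin, of the selected line or of AC007128.1 itself cannot be told apart. The labels do not say whether the 3 samples of a group are separate cultures, so p-values measure the spread between these samples, which may be technical.

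Total counts were 65140326 to 78610457 in shCtrl samples and 55764405 to 60158244 in shAC007128.1 samples. Levels are given as CPM (a gene's counts over the library total, scaled by edgeR's TMM factors), and the detection floor of 3 counts lay at 0.0373 to 0.0546 CPM. Values by sample are listed in the order of replicates 1, 2 and 3, and errors are standard deviations (SD) over 3 samples, or standard errors (SE) for log2 fold changes. Each gene was tested with edgeR's quasi-likelihood test, with p-values adjusted by Benjamini-Hochberg over all 19254 genes that passed a filter on low counts. A gene was called higher or lower in shAC007128.1 samples if its adjusted p was 0.05 or less and its log2 fold change was at least 1 in either direction. Under this rule 5.57% of all genes tested were called higher and 10.1% lower, 15.7% in all.

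Groups were taken from the titles and descriptions in the labels, since their treatment text names the AC007128.1 hairpin for every sample, shCtrl included. The targeted gene, AC007128.1, is the check of these labels. AC007128.1 (ENSG00000229970) had 69, 33 and 53 counts in shCtrl samples and 18, 37 and 15 counts in shAC007128.1 samples, so the groups overlapped. AC007128.1 was at 58.6% of the control level, with a log2 fold change of -0.77 ± 0.51 (SE, edgeR adjusted p = 0.271), which did not pass the test and so does not check the direction of the comparison. The paper reports that its hairpin lowered AC007128.1 by qPCR, and the sources used here do not say whether that RNA came from these samples. Markers of squamous epithelium other than keratins were present in both groups. The sum of 8 such markers, among them TP63, DSG3 and CDH1, was 1543 to 1663 CPM in shCtrl samples. In shAC007128.1 samples it was 1905 to 2172 CPM. CDH1 was the largest term, with means of 535 CPM in shCtrl and 620 CPM in shAC007128.1 samples. PERP was called higher (164 and 474 CPM) and DSG3 lower (203 and 95.3 CPM). TP63 was not called, with means of 126 and 104 CPM.

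Of the 55 keratin genes 21 passed the filter on low counts. Among these, 9 were called higher (42.9%) and 6 lower (28.6%) in shAC007128.1 samples, beside 5.57% and 10.1% of all genes tested. The 9 higher members were KRT8, KRT14, KRT6A, KRT6B, KRT6C, KRT15, KRT16, KRT13 and KRT9. The 6 lower members were KRT81, KRT86, KRT34, KRT80, KRT7 and KRT78. The median log2 fold change of the 21 members was 0.87, where all genes tested had -0.02, and single members ran from -5.74 to 2.85. For 11 members every shAC007128.1 sample was above every shCtrl sample, for 8 every one was below, and only KRT17 and KRT75 overlapped, where 27% and 28.2% of all genes tested were above and below in this way, 55.2% in all. A gene that passes the filter only through the group where it is high has to differ, so these counts hold for the members tested, of which 18 had at least 10 counts in every sample. In bulk RNA, fewer cells with a keratin and less of its RNA per cell cannot be told apart.

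**Figure D1:**
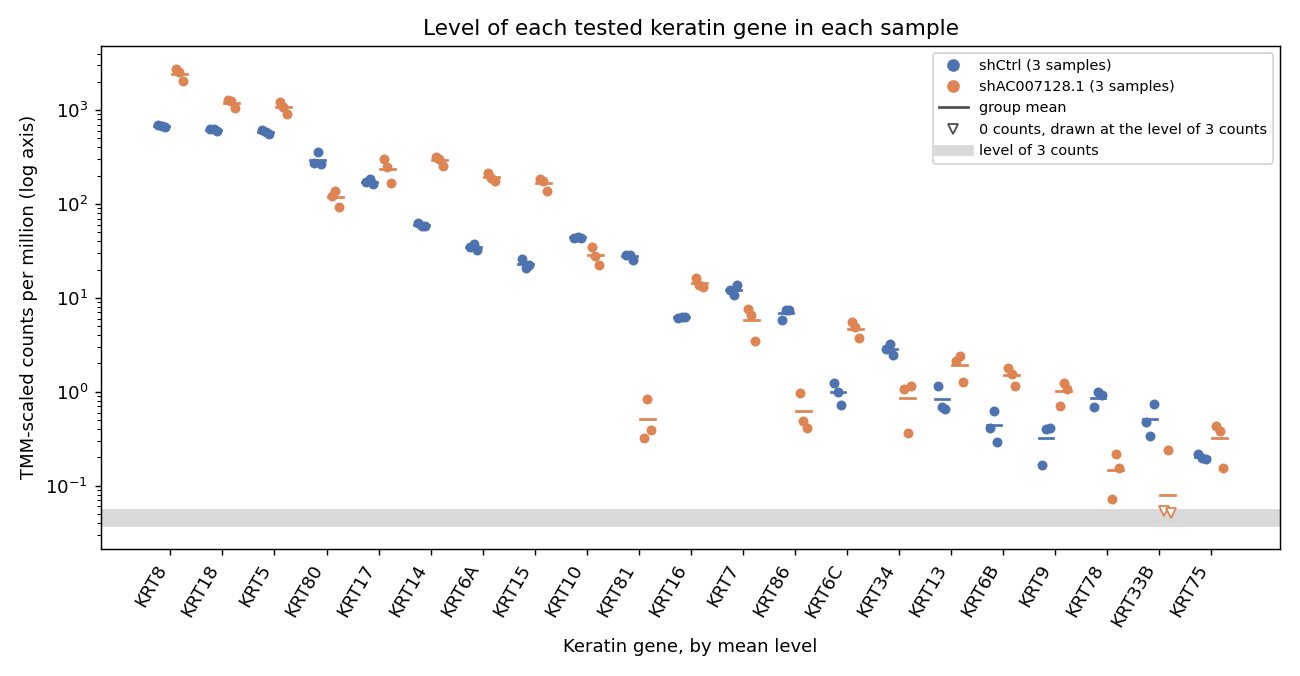
Level of the 21 tested keratin genes in each of the 6 samples, in TMM-scaled CPM on a log axis, ordered by mean level; blue points are shCtrl samples, orange points shAC007128.1 samples, short lines are group means and the gray band is the level of 3 counts. The groups lie apart for 19 genes, and KRT81 shows the widest gap, from 25.6 to 28.9 CPM in shCtrl samples to under 1 CPM in all shAC007128.1 samples.

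By class, the calls fell on different sides, in groups of few genes. Of 12 tested keratins of stratified epithelium, 8 were called higher and 1 lower. Of 5 tested hair keratins, 0 were called higher and 3 lower. With no limit on fold change the same test also gave 0 higher and 3 lower. Of all genes tested, 5.57% were called higher and 10.1% lower, and 21% and 19.8% with no limit on fold change. KRT81 and KRT86, both lower, share part of their sequence, as do KRT6A, KRT6B and KRT6C, all higher. Calls within each of these sets may thus not be separate evidence. Of 3 tested keratins of simple epithelium, 1 was called higher and 1 lower. By type, 5 of 10 type I members tested were called higher and 1 lower, and 4 of 11 type II members were called higher and 5 lower. Whether classes or types differ from each other or from all genes was not tested.

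Among keratins of simple epithelium, KRT8, the type II chain, was the most abundant keratin by counts. KRT8 measured 689, 676 and 661 CPM in shCtrl samples and 2756, 2522 and 2043 CPM in shAC007128.1 samples. All 3 shAC007128.1 samples stood far above the controls, with replicate 3 the lowest of them. KRT8 was 3.61-fold higher, with a log2 fold change of 1.85 ± 0.11 (SE, edgeR adjusted p = 4.17e-05). Its partner KRT18, the type I chain, measured 629, 626 and 594 CPM in shCtrl samples and 1281, 1239 and 1052 CPM in shAC007128.1 samples. The groups did not overlap here either, yet the difference was smaller. KRT18 had a log2 fold change of 0.95 ± 0.08 (SE, edgeR adjusted p = 0.00017), which passed the adjusted p but not the limit on fold change. Without shAC007128.1 replicate 3 it was 1.02 (edgeR adjusted p = 3.55e-05) and KRT18 would be called.

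KRT7, a type II keratin of glandular and duct epithelium, went the other way from KRT8. KRT7 measured 12, 10.7 and 13.8 CPM in shCtrl samples and 7.58, 6.55 and 3.44 CPM in shAC007128.1 samples, and every shAC007128.1 sample was below the controls. Its log2 fold change was -1.06 ± 0.28 (SE, edgeR adjusted p = 0.0218), close to the limit. The call was lost without shAC007128.1 replicate 3 (-0.79), without shCtrl replicate 1 (edgeR adjusted p = 0.0573) and without shCtrl replicate 3 (edgeR adjusted p = 0.0715). KRT19, a type I keratin of simple and duct epithelium that many carcinomas express at high level, was not tested, with counts of 0, 5 and 5 in shCtrl samples and 0, 13 and 22 in shAC007128.1 samples. KRT20, the type I keratin of intestinal epithelium, had 16 counts in shCtrl replicate 2 and 0 in the other 5 samples.

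The basal pair of squamous epithelium was higher on both sides, by unequal amounts. KRT5, the type II chain, measured 607, 588 and 561 CPM in shCtrl samples and 1225, 1072 and 913 CPM in shAC007128.1 samples. KRT5 had a log2 fold change of 0.87 ± 0.11 (SE, edgeR adjusted p = 0.000706), which passed the adjusted p but not the limit on fold change. KRT14, the type I chain, measured 62.7, 57.9 and 59 CPM in shCtrl samples and 316, 302 and 255 CPM in shAC007128.1 samples. In each pair the groups were separate, and replicate 3 was the lowest shAC007128.1 sample for KRT5 and for KRT14. KRT14 was 4.86-fold higher, with a log2 fold change of 2.28 ± 0.10 (SE, edgeR adjusted p = 1.89e-05). KRT15, a second type I keratin of basal cells and of stem cells of the hair follicle, measured 25.8, 20.8 and 22.3 CPM in shCtrl samples and 184, 176 and 138 CPM in shAC007128.1 samples. Its log2 fold change of 2.85 ± 0.14 (SE, edgeR adjusted p = 2.89e-05), a 7.22-fold difference, was the highest of the 21 members tested.

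Keratins of activated epithelium were mostly higher. KRT6A, the type II chain, measured 35.2, 37.1 and 32.5 CPM in shCtrl samples and 213, 189 and 174 CPM in shAC007128.1 samples, a 5.49-fold difference between groups that lay far apart. KRT6A had a log2 fold change of 2.46 ± 0.10 (SE, edgeR adjusted p = 1.73e-05). KRT6C and KRT6B, near-identical copies of KRT6A, were much lower in level, at 0.722 to 1.24 and 0.295 to 0.622 CPM in shCtrl samples and at 3.7 to 5.5 and 1.15 to 1.81 CPM in shAC007128.1 samples. KRT6C had a log2 fold change of 2.25 ± 0.27 (SE, edgeR adjusted p = 0.000679) and KRT6B of 1.76 ± 0.36 (SE, edgeR adjusted p = 0.00717). Of all 50-base stretches of their transcripts, 32.2% in KRT6A, 44.1% in KRT6C and 46.6% in KRT6B also occur in other genes, so how reads were split among the 3 copies is uncertain. Summed, the 3 copies had a log2 fold change of 2.44 (edgeR adjusted p = 1.9e-05).

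The type I partners of KRT6A differed less. KRT16 measured 6.12, 6.32 and 6.21 CPM in shCtrl samples and 16.3, 13.6 and 13 CPM in shAC007128.1 samples, with no overlap. KRT16 was 2.29-fold higher, with a log2 fold change of 1.20 ± 0.14 (SE, edgeR adjusted p = 0.000514). KRT17, the most abundant of these type I chains, measured 172, 186 and 162 CPM in shCtrl samples and 298, 248 and 167 CPM in shAC007128.1 samples. Replicate 3 of the shAC007128.1 samples fell within the control range, so the groups overlapped. KRT17 had a log2 fold change of 0.45 ± 0.19 (SE, edgeR adjusted p = 0.102), which did not pass the test. Without shAC007128.1 replicate 3 it was 0.64 (edgeR adjusted p = 0.00333), which passed the adjusted p, and without shAC007128.1 replicate 1 it was 0.25 (edgeR adjusted p = 0.279). Stretches of 50 bases that also occur in any other gene made up 17% of KRT14, 16.5% of KRT16 and 9.56% of KRT17. Those found in other keratin members made up only 8.43%, 7.93% and 0.845%, so summing these 3 genes covers only part of the sharing. The summed counts had a log2 fold change of 1.18 (edgeR adjusted p = 0.000508). This blends KRT14 at 2.28, KRT16 at 1.20 and KRT17 at 0.45.

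Keratins of the layers above the basal layer did not move together. KRT13, the type I keratin of the esophageal suprabasal layers, measured 1.15, 0.684 and 0.649 CPM in shCtrl samples and 2.13, 2.38 and 1.27 CPM in shAC007128.1 samples, where the lowest shAC007128.1 sample lay just above the highest control. KRT13 had a log2 fold change of 1.22 ± 0.35 (SE, edgeR adjusted p = 0.0275). Its call was lost without shAC007128.1 replicate 1 or 2 and without shCtrl replicate 2 or 3, where edgeR adjusted p-values ran from 0.0697 to 0.0947, and with no filter on low counts (edgeR adjusted p = 0.0571). KRT4, its type II partner, was not tested, with 9, 8 and 18 counts in shCtrl samples and 0, 5 and 0 in shAC007128.1 samples.

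KRT10, the type I keratin of cornifying layers, measured 43.9, 44.7 and 43.6 CPM in shCtrl samples and 34.9, 28.1 and 22.4 CPM in shAC007128.1 samples, all below the controls. KRT10 had a log2 fold change of -0.63 ± 0.16 (SE, edgeR adjusted p = 0.0153), under the limit on fold change. Its usual type II partners KRT1 and KRT2 had 0 counts in every sample. KRT78, a type II keratin, measured 0.683, 0.982 and 0.914 CPM in shCtrl samples and 0.0712, 0.218 and 0.155 CPM in shAC007128.1 samples. KRT78 had a log2 fold change of -2.52 ± 0.48 (SE, edgeR adjusted p = 0.00496), from 50 to 79 counts in shCtrl samples and 4 to 12 in shAC007128.1 samples. KRT9, the type I keratin of palm and sole epidermis, measured 0.164, 0.398 and 0.413 CPM in shCtrl samples and 0.712, 1.24 and 1.07 CPM in shAC007128.1 samples. KRT9 had a log2 fold change of 1.62 ± 0.45 (SE, edgeR adjusted p = 0.0235). Its call was lost without shAC007128.1 replicate 2 (edgeR adjusted p = 0.0738), without shAC007128.1 replicate 3 (0.0573) and without shCtrl replicate 1 (0.0518).

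Of the 26 hair keratins 21 did not pass the filter, and KRT81 was the only one among the 10 highest keratins of the control cells. KRT81, a type II keratin of the hair cortex, measured 28.6, 28.9 and 25.6 CPM in shCtrl samples and 0.32, 0.837 and 0.396 CPM in shAC007128.1 samples. KRT81 was 53.5-fold lower, with a log2 fold change of -5.74 ± 0.34 (SE, edgeR adjusted p = 4.34e-05). KRT86, its close relative and neighbor, measured 5.81, 7.38 and 7.49 CPM in shCtrl samples and 0.961, 0.492 and 0.413 CPM in shAC007128.1 samples, 11.1-fold lower. KRT86 had a log2 fold change of -3.47 ± 0.34 (SE, edgeR adjusted p = 0.000296). Each gene thus kept under 1 CPM in all 3 shAC007128.1 samples. KRT81 shares 44.6% and KRT86 37% of its 50-base stretches with other genes, so the split of reads is uncertain, and summed with KRT83 they had a log2 fold change of -4.90 (edgeR adjusted p = 1.6e-05).

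Type I hair keratins were lower in level. KRT34 measured 2.83, 3.23 and 2.45 CPM in shCtrl samples and 1.07, 0.364 and 1.14 CPM in shAC007128.1 samples, with no overlap. KRT34 had a log2 fold change of -1.73 ± 0.41 (SE, edgeR adjusted p = 0.013). KRT33B, next to it in the cluster, had 35, 27 and 50 counts in shCtrl samples and 0, 13 and 0 in shAC007128.1 samples. KRT33B had a log2 fold change of -2.70 ± 1.21 (SE, edgeR adjusted p = 0.118), which did not pass the test. Without shAC007128.1 replicate 2, the single shAC007128.1 sample with counts, the fitted value was -8.12 (edgeR adjusted p = 0.0071), which is set by the 0 counts left in that group and is no measure of size. KRT75, a keratin of the companion layer of the root sheath, had 13 to 16 counts in shCtrl samples and an edgeR adjusted p of 0.378.

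KRT80, a type II keratin that is widespread in epithelia and was left outside the classes, was a major keratin of the control cells. KRT80 measured 271, 357 and 265 CPM in shCtrl samples and 121, 139 and 93.3 CPM in shAC007128.1 samples. The lowest control was well above the highest shAC007128.1 sample. KRT80 was 2.53-fold lower, with a log2 fold change of -1.34 ± 0.17 (SE, edgeR adjusted p = 0.000958).

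The other 34 members did not pass the filter. Of these, 19 had 0 counts in every sample and 15 had some counts, with 22 in a single sample as the highest, in KRT19. Differences in these genes were not tested at this depth. The root sheath genes KRT25, KRT26, KRT27 and KRT28 and the hair shaft genes KRT31, KRT35 and KRT85 were among those at 0 throughout. KRT32, a hair cuticle keratin, was the only untested member with counts in all 6 samples, from 4 to 21.

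Along the clusters, called genes of the same direction were often neighbors in these data, which was not tested. KRT81 and KRT86 share part of their sequence, as do KRT6A, KRT6B and KRT6C. A shared direction within each of these sets may thus not be separate evidence. On chromosome 12 of hg38 the run starts with KRT80 (52168996 to 52192014), KRT7, KRT86 and KRT81 (52285913 to 52291534), all called lower. KRT81 lies within the span of KRT86 (52249300 to 52309163), on the opposite strand. After 4 untested hair genes and KRT75 follow KRT6B, KRT6C and KRT6A (52487176 to 52493257), all called higher, and KRT5, which was higher at the adjusted p alone. At the far end, KRT78 (52837804 to 52849092) was called lower and KRT8 (52897187 to 52949954) higher. KRT8 and KRT18 lie head to head and share 525 exonic bases on opposite strands, and the use of strand in counting is not given in the sources used here. On chromosome 17, KRT33B and KRT34 lay below the controls in all shAC007128.1 samples. KRT13, KRT15, KRT9, KRT14 and KRT16, between 41500981 and 41615899, were all called higher. KRT17, the next keratin gene (41619442 to 41624842), was not called, with a log2 fold change of 0.45 (edgeR adjusted p = 0.102). In this run the calls of KRT13 and KRT9 were lost in some fits with 1 sample left out. KRT19, between KRT15 and KRT9, was not tested. KRT10, elsewhere in this cluster, was lower at the adjusted p alone.

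**Figure D2:**
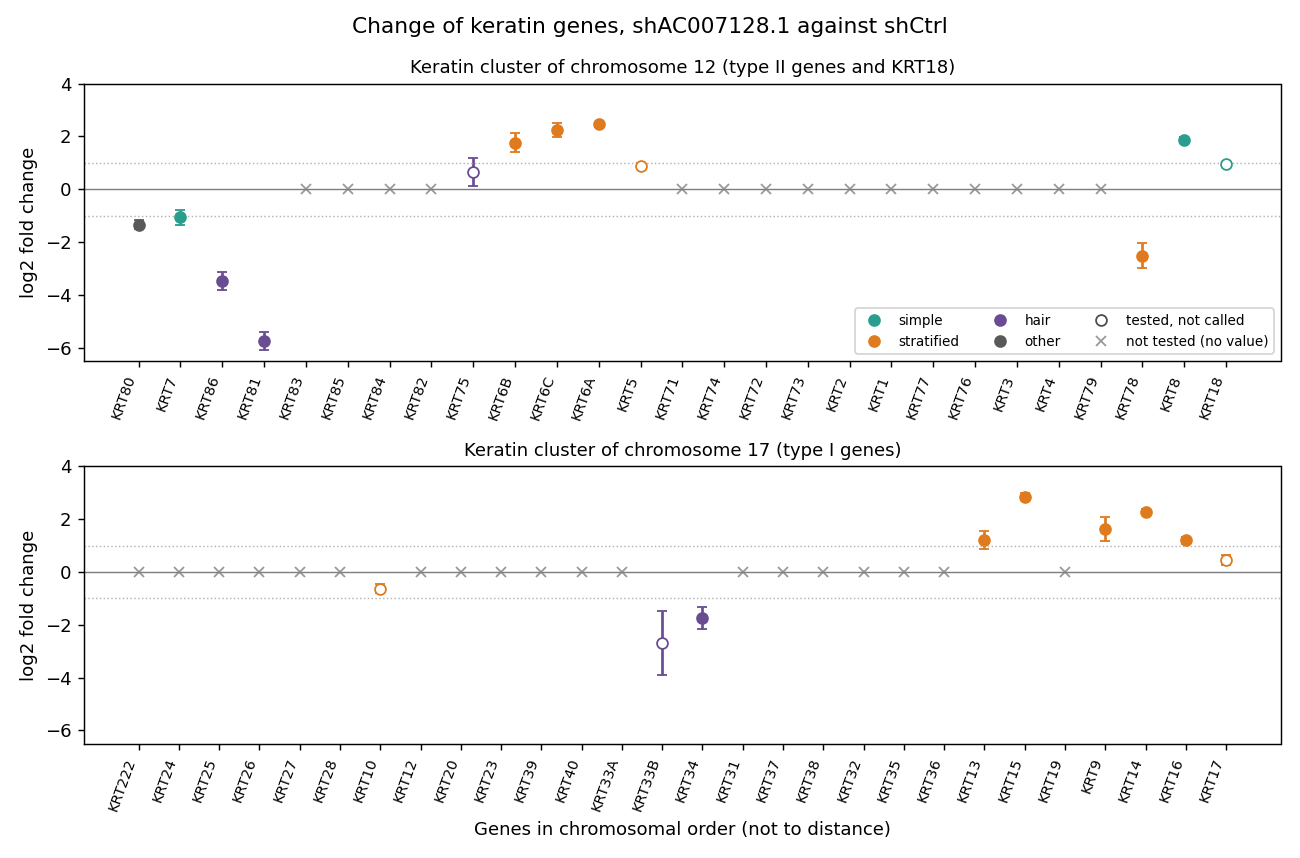
Log2 fold change of keratin genes, shAC007128.1 against shCtrl, in chromosomal order but not to distance, with the chromosome 12 cluster above and the chromosome 17 cluster below; bars are standard errors, filled points are called genes, open points were tested and not called, crosses were not tested and have no value, colors are classes and dotted lines mark a log2 fold change of 1 in either direction. The 4 genes at the left of the chromosome 12 panel lie between -1.06 and -5.74, and the 3 KRT6 genes between 1.76 and 2.46.

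Start sites were compared because members of each direction sit side by side. RefSeq promoter windows (GRCh38.p14, 250 bases before to 50 after a start) were present for 34 of the 55 members, and for 6 of the 21 tested members the start of the window's transcript matched that of the annotated transcript. Stretches of 80 bases, from 70 before to 10 after the start, are shown 5′ to 3′ for KRT5 (chr12:52520385-52520464, minus strand) and KRT9 (chr17:41572050-41572129, minus strand), which were higher at the adjusted p, and for KRT10 (chr17:40822605-40822684, minus strand) and KRT34 (chr17:41382297-41382376, minus strand), which were lower at the adjusted p. Only KRT9 and KRT34 also passed the limit on fold change. Capitals mark TATAA or ATAAA, and the TATAAA that their overlap makes.
KRT5: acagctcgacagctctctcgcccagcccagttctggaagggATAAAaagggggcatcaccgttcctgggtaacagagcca
KRT9: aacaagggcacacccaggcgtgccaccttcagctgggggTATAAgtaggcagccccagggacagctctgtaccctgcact
KRT10: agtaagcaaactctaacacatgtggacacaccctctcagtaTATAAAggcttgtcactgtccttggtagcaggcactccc
KRT34: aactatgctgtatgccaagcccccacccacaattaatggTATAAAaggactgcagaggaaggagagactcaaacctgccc

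All 4 stretches carry such a match shortly before the start, in genes of either direction. The 38 keratin windows come mostly from untested members: only 7 tested members have one. KRT40 counts 4 times and KRT85 2 times, and the KRT8 window lies 21393 bases from its annotated start. Most called members, among them KRT14, KRT15, KRT6A, KRT80 and KRT81, have no window, so the shares below hardly cover them. Over all 38 keratin windows, 31 (81.6%) held TATAA or ATAAA on the gene's strand between 40 and 15 bases before the start. Of all 35116 promoter windows 6.23% did. The letters TGANTCA, the core of AP-1 sites, were found, on either strand, in 0 of 38 keratin windows and in 7.71% of all windows. The letters GCCNNNGGC, the core of AP-2 sites, were in 5 of 38 (13.2%) and in 23.2% of all windows. A match is a run of letters and not a measured binding site.

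Summed over the family, keratin RNA took up more of each shAC007128.1 library. The sum was 2595, 2656 and 2460 CPM in shCtrl samples and 6466, 5947 and 4885 CPM in shAC007128.1 samples. Means were 2570 ± 100 and 5766 ± 806 CPM (SD, n = 3), a log2 ratio of 1.17, and the groups did not overlap. The two-sided exact permutation p was 0.1, the smallest that 3 samples against 3 can give, as it was for each of the 6 sums and shares tested here and after adjustment over them. Without KRT8 the log2 ratio was 0.81.

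Within this sum the make-up shifted toward simple keratins. Keratins of simple epithelium made up 51.2, 49.5 and 51.6% of keratin CPM in shCtrl samples and 62.5, 63.3 and 63.5% in shAC007128.1 samples, a difference of 12.4 percentage points that shrank to 2.9 without KRT8. KRT8 alone went from 25.5 to 26.9% of the sum to 41.8 to 42.6%, and KRT18 from 23.6 to 24.2% to 19.8 to 21.5%. KRT80 held 10.4 to 13.4% in shCtrl samples and 1.87 to 2.34% in shAC007128.1 samples. KRT80 has the longest transcript of the abundant members, and the difference in the share of its class, -9.51 points, was -4.61 points with counts divided by transcript length. Hair keratins held 1.5 ± 0.0318% and 0.0459 ± 0.00115% (SD, n = 3).

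Shares of stratified and of type I keratins depended on KRT8. The share of stratified keratins was 36.2 ± 0.646% in shCtrl samples and 34.8 ± 0.661% in shAC007128.1 samples, a difference of -1.41 points that turned to 11.2 points without KRT8. The type I share was 36.4, 35.7 and 36.2% in shCtrl samples and 33, 33.8 and 33.8% in shAC007128.1 samples, a difference of -2.56 points that turned to 9.13 points without KRT8. Divided by transcript length, these 2 differences were -2.54 and -5.5 points.

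**Figure D3:**
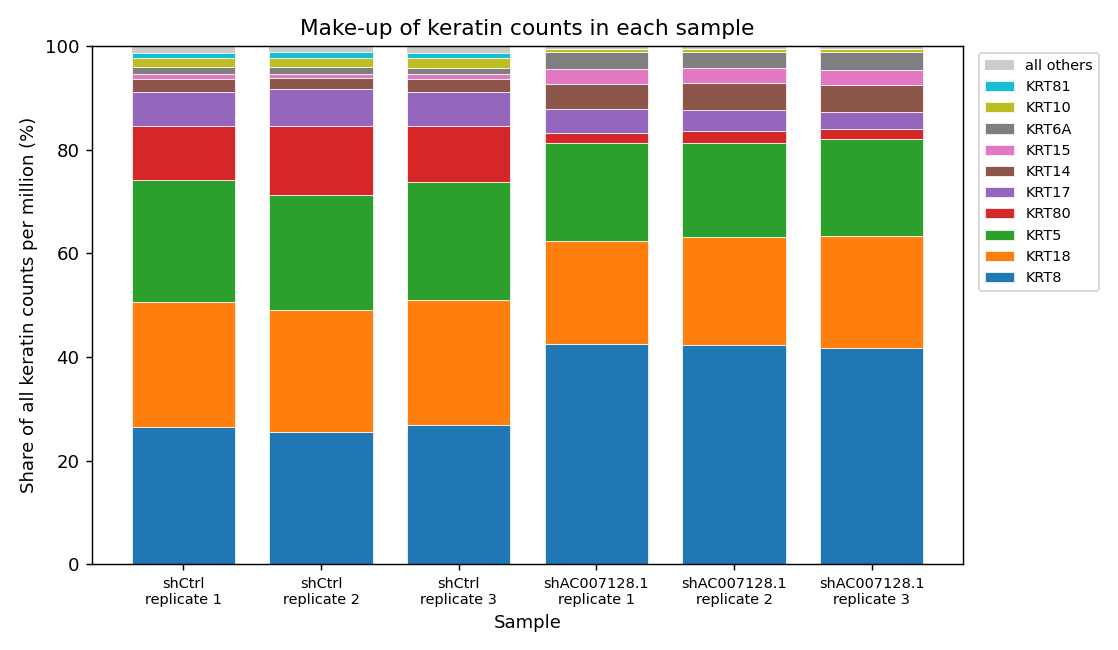
Share of each keratin gene in the keratin CPM of each sample, in percent, with the 10 members highest by level per kb in color and all other members in gray. In the 3 shAC007128.1 samples the KRT8 segment holds 41.8 to 42.6% against 25.5 to 26.9% in the 3 shCtrl samples, and the KRT80 segment narrows to at most 2.34%.

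The order of levels between genes was taken per kb of transcript. In shCtrl samples it ran KRT18 (436 CPM per kb), KRT8 (379), KRT5 (261), KRT17 (114), KRT80 (76.8), KRT14 (36.6). In shAC007128.1 samples it ran KRT8 (1368 CPM per kb), KRT18 (843), KRT5 (478), KRT14 (178), KRT17 (156), KRT15 (96.9), KRT6A (83.1), and KRT80 stood at 30.4. By this length KRT8 and KRT18 changed places at the top and KRT80 dropped behind KRT14, KRT15 and KRT6A. In shAC007128.1 samples the ranges of KRT14 and KRT17 overlapped. Those of KRT15 (80.8 to 107 CPM per kb) and KRT6A (75.2 to 92.5) did as well. Replicate 3 was the lowest sample for each of these genes, so overlapping ranges do not show whether the order held within each sample. The order rests on 1 transcript per gene. With the union of all exons as length the change of places was lost, and KRT18 came first in both groups. It was at 201 CPM per kb against 98.1 for KRT8 in shCtrl samples, and at 388 against 355 in shAC007128.1 samples. There the ranges of KRT18 (343 to 417) and KRT8 (297 to 400) overlapped, with the lowest and the highest sample both above those of KRT8. KRT80 then overlapped KRT15 in shAC007128.1 samples.

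Ratios of partner genes were taken within each sample, where scaling between libraries plays no part. KRT14 to KRT5 had a log2 ratio of counts of -3.28, -3.34 and -3.25 in shCtrl samples and of -1.95, -1.83 and -1.84 in shAC007128.1 samples, a rise of 1.41. KRT18 to KRT8 had -0.13, -0.11 and -0.16 in shCtrl samples and -1.11, -1.03 and -0.96 in shAC007128.1 samples, a difference of -0.90. In the first pair the type I chain gained on its partner and in the second the type II chain did. KRT16 to KRT6A had -2.52, -2.55 and -2.39 in shCtrl samples and -3.71, -3.80 and -3.74 in shAC007128.1 samples, a difference of -1.26. KRT17 to KRT6A had 2.29, 2.33 and 2.32 in shCtrl samples and 0.48, 0.39 and -0.06 in shAC007128.1 samples, a difference of -2.04. The groups did not overlap in any of these 4 pairs, and each two-sided exact permutation p was 0.1, the smallest possible, before and after adjustment over the 4. Other pairs of the design, with KRT19, KRT1 or KRT4, had a member that did not pass the filter.

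**Figure D4:**
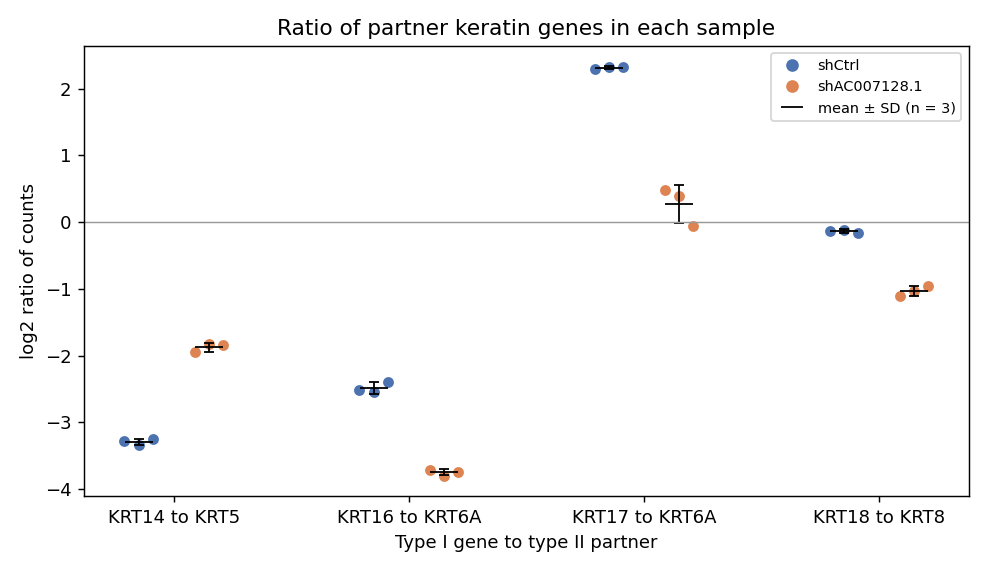
Log2 ratio of the counts of a type I gene to those of its type II partner in each sample, with mean and SD (n = 3); blue points are shCtrl and orange points shAC007128.1 samples. KRT14 gained on KRT5, by 1.41 in mean log2 ratio, and KRT16, KRT17 and KRT18 lost against KRT6A, KRT6A and KRT8, by -1.26, -2.04 and -0.90.

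Samples of a group differed in a shared way across members. Replicate 3 was the lowest shAC007128.1 sample for 16 of the 21 members tested, among them 8 of the 9 higher and 3 of the 6 lower members. Replicate 1 was the highest shAC007128.1 sample for 14. Among shCtrl samples, replicate 3 was the lowest for 13. These orders describe the samples and were not tested.

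Genes that work with keratin filaments were read from hand-written lists. Of 17 desmosome, linker and keratin-binding genes tested, 0 were called higher and 0 lower, and 6 were higher and 1 lower at the adjusted p alone, beside 21% and 19.8% of all genes tested. Their median log2 fold change was 0.23. EPPK1, which encodes epiplakin, a protein that binds keratin bundles, was at 27.4 ± 0.685 CPM in shCtrl samples and 41.5 ± 5.67 CPM in shAC007128.1 samples (SD, n = 3), with a log2 fold change of 0.60 ± 0.12 (SE, edgeR adjusted p = 0.00569). DSP, which encodes desmoplakin, the link from desmosome to keratin, was at 513 ± 11.6 and 603 ± 13.4 CPM, with a log2 fold change of 0.23 (edgeR adjusted p = 0.0117). SFN, a 14-3-3 protein that binds keratins, was at 284 ± 9.28 and 452 ± 107 CPM, with a log2 fold change of 0.67 (edgeR adjusted p = 0.0146). DSP no longer passed the adjusted p without shCtrl replicate 1 (edgeR adjusted p = 0.0546) or 3 (0.0655) or with no filter (0.0857), nor did SFN without shCtrl replicate 2 (0.0511) or 3 (0.0549).

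Of 17 other intermediate filament genes listed, 11 were tested, 1 was called higher and 2 lower, beside 5.57% and 10.1% of all genes tested. At the adjusted p alone 2 were higher and 3 lower, beside 21% and 19.8% of all genes tested. The median log2 fold change of the 11 was 0.21. VIM, which encodes vimentin and was chosen after its values were seen, was higher at the adjusted p alone. Its log2 fold change was 0.89 (edgeR adjusted p = 0.0123). LMNB1, which encodes lamin B1 of the nuclear lamina, was at 45.5 ± 1.39 CPM in shCtrl samples and 132 ± 10.9 CPM in shAC007128.1 samples, with a log2 fold change of 1.53 ± 0.09 (SE, edgeR adjusted p = 3.78e-05). PRPH, the neuronal filament peripherin, was at 2.63 ± 0.292 and 0.422 ± 0.193 CPM, with a log2 fold change of -2.63 (edgeR adjusted p = 0.00128). BFSP1, the lens filament filensin, was at 3.53 ± 0.418 and 1.7 ± 0.327 CPM, with a log2 fold change of -1.06 (edgeR adjusted p = 0.00716), and its call was lost without shAC007128.1 replicate 3 (-0.93) or shCtrl replicate 2 (-0.96).

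Of 24 listed transcription factors and other regulators of keratin genes, 22 were tested, 1 was called higher and 0 lower, beside 5.57% and 10.1% of all genes tested. At the adjusted p alone 3 were higher and 7 lower, beside 21% and 19.8% of all genes tested, and their median log2 fold change was -0.21. SOX2, a factor of basal squamous cells, measured 0.328, 0.385 and 0.59 CPM in shCtrl samples and 4.73, 5.17 and 3.89 CPM in shAC007128.1 samples. The groups lay far apart, and SOX2 had a log2 fold change of 3.40 ± 0.28 (SE, edgeR adjusted p = 0.000146). STAT3, which acts in activated epithelium, was at 133 ± 3.1 and 228 ± 7.79 CPM, with a log2 fold change of 0.78 (edgeR adjusted p = 0.000137). KLF4, a factor of squamous differentiation, was at 65.6 ± 1.4 and 35.5 ± 2.64 CPM, with a log2 fold change of -0.88 (edgeR adjusted p = 0.000274). TP63, a factor of basal squamous cells, and HOXC13, a regulator of hair keratins, were chosen after their values were seen. TP63 had a log2 fold change of -0.27 (edgeR adjusted p = 0.406), which turned to 0.09 without shCtrl replicate 3 (edgeR adjusted p = 0.525). HOXC13 had a log2 fold change of -0.50 (edgeR adjusted p = 0.0196). With sample numbers taken as pairs HOXC13 no longer passed (edgeR adjusted p = 0.0536). Nor did it pass without shAC007128.1 replicate 1 (0.0501) or 2 (0.0516) or without shCtrl replicate 1 (0.0694) or 2 (0.0771).

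Markers of other cell types were read in the same samples. The sum of 6 fibroblast markers was 15.3 to 16.1 CPM in shCtrl samples and 20.9 to 23.9 CPM in shAC007128.1 samples, most of it COL1A1. COL1A2 and COL3A1 were near absent in both groups, with 0, 0 and 4 and with 16, 0 and 4 counts in shCtrl samples and 0 in all shAC007128.1 samples. Of the 3 fibroblast markers tested, LUM was called higher and PDGFRB lower. For 3 endothelial markers the sums were 2.12 to 3.11 CPM in shCtrl samples and 0.302 to 2.02 CPM in shAC007128.1 samples. VWF and CDH5 had lower means in shAC007128.1 samples and PECAM1 a higher one (0.131 and 0.369 CPM), with no gene called. For 4 melanocyte markers they were 4.35 to 5.23 and 2.22 to 3.35 CPM, with TYR at 0 throughout. Their part in the keratin values was not tested.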

How the data were processed

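RNA sequencing of KYSE150 cells (3 shCtrl and 3 shAC007128.1 samples) was analyzed from the authors' table. The authors filtered the reads and mapped them to hg38 with TopHat (TopHat2 2.0.6 and CASAVA 1.8 in the submitters' processing notes). The table deposited by the authors holds estimated counts for Ensembl genes, whole and not normalized, from a counting program, annotation and strand setting that are not given in the sources used here. Multiples of 4 were overrepresented among low counts, and division by 4 was tried as an alternative. Groups were read from each sample's title and description.

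GENCODE v44 on hg38 gave names, types and positions for 60357 of the 67140 identifiers. Genes were filtered with filterByExpr, which left 19254, normalized by TMM and compared in R 4.3.3 by edgeR 4.0.16 (glmQLFit, glmQLFTest). A standard error is the log2 fold change over the root of the F statistic. Sums, shares and ratios per sample were compared by two-sided exact permutation tests. The steps were tested on simulated counts. Depth was 55764405 to 78610457 counts, and the level of 3 counts covers counting error only.

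Every keratin could be named, with full values for called members and the 10 highest per kb. The 3 genes with the smallest p were named from each other list. The members and lists were chosen with earlier results of these data known. Alternatives were DESeq2 1.42.0, limma-voom (limma 3.58.1), other scalings and filters, the replicate block, each sample left out, no limit on fold change, paralogs summed, length scaling, and leaving KRT8 out. Adding pseudogene counts to KRT8 and KRT18 was chosen after seeing the data. A further marker list is not reported here.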

Additional observations from a re-analysis of the deposited data

How the results depend on the processing

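All 21 tested keratins kept the sign of their log2 fold change under every setting in which they were tested. Keratin calls ran from 6 to 11 higher and from 5 to 7 lower. Leaving out each sample in turn gave 7 to 9 higher and 5 to 7 lower keratins, and 970 to 1068 higher and 1586 to 2023 lower genes in all. With no limit on fold change, 4041 genes passed as higher and 3820 as lower, with 11 and 7 keratins. Without KRT8 the difference in type I share reversed from -2.56 to 9.13 percentage points and that in stratified share from -1.41 to 11.2, since KRT8 is the largest term of the sum. With 10 counts required in every sample KRT78 was not tested, and limma-voom called KRT33B (-4.20). Pseudogenes of KRT8 held 0.366 to 1.86% and those of KRT18 0.0926 to 0.397% of the parent gene's counts, and adding them changed no keratin call. With paralogs summed, 6 keratin entries were higher and 5 lower.

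A replicate block, with sample numbers taken as pairs, left the same 9 keratins called higher and 6 lower, and 977 and 1692 genes in all. Residuals of samples that share a number correlated at 0.0306, -0.0254 and -0.0299, and the labels do not say that numbers pair the samples. Genes of few counts limit the list. Among called members, no sample had more than 131 counts for KRT13, 102 for KRT6B, 79 for KRT78 or 68 for KRT9.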
